A study of Mus musculus with 6 samples.

Results

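The mitosis and G2/M genes examined here are a fixed list of 47 genes whose products carry a cell out of G2 and through division, from the mitotic cyclins to the condensin complex. They were chosen by gene symbol, and all 47 were found among the 43432 genes of the deposited table. The RNA came from macrophages sorted from mammary glands of female FVB/N mice of the genotype MMTV-PyMT, in which the promoter of the mouse mammary tumour virus drives the polyomavirus middle T oncogene in mammary epithelium and tumours form in the glands. Macrophages are tissue phagocytes, and here they were cells stained with a viability dye and sorted for CD45, MHC class II and CD14. Samples were taken at 11 weeks (3 libraries) and at 8 weeks (3 libraries) to follow gene expression from early to late tumours. Every sample carried the transgene, and the comparison has no group without it. Sample titles carry a number within each age but do not say that each came from its own mouse, so the p-values here reflect how these libraries vary, and that variation may be technical.

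Cells enter mitosis when cyclin B bound to Cdk1 is freed of its inhibitory phosphates by Cdc25 phosphatases. Aurora and Polo kinases then build the spindle, the checkpoint proteins hold anaphase until every kinetochore is attached, and the anaphase-promoting complex destroys securin and the cyclins. These genes are transcribed in a wave late in the cell cycle. Their promoters are known for the cell cycle genes homology region (CHR), which is bound by MuvB complexes together with repressor or activator partners, and for CCAAT boxes, which are bound by the factor NF-Y. Tissue macrophages can divide in place, while monocytes that arrive from blood have mostly left the cycle.

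The promoters of the members held the CHR letters more often than those of other genes. RefSeq windows of 250 bases before to 50 bases after a gene's start, on GRCm38.p6, were matched by symbol for 39 of the 47 genes. TTTGAA on either strand lay in the windows of 30 of these 39 genes (76.9%), against 20.2% of all 27025 genes with a window and 15.1% of the 12343 that were also tested for expression. In 26 members (66.7%) a match began within 40 bases of the start, a distance chosen with the matches in view, against 4.9% of all genes with a window. CCAAT on either strand lay in the windows of 29 members (74.4%), against 41.1% of all genes. Both motifs stood in a window of 25 members (64.1%), against 8.0% of all genes. Related lists held the motifs too. Among 24 other spindle, centrosome and cytokinesis genes with a window, TTTGAA lay in 66.7%, CCAAT in 70.8% and both in 58.3%. CCAAT lay in 83.3% of 6 Cdk1 regulators and 73.3% of 15 S phase genes, where TTTGAA lay in 33.3% of the Cdk1 regulators and 13.3% of the S phase genes. The CHR and CCAAT matches overlapped each other in 1 of the 42 member windows. A match is a run of letters and not a shown binding site.

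The stretches below run from 170 bases before the RefSeq start through the first 20 bases of the transcript. They are shown because Mki67 and Top2a are common markers of dividing cells and Cdk1 is the kinase that drives entry into mitosis, Ccnb2 has the regular spacing for which such promoters are known, Kif23 and Cdc25b were the members with the smallest p-values, and Cdc25b lacks the CHR letters. Sequences are from RefSeq on GRCm38.p6 and read 5′ to 3′ on the gene's own strand. Capitals mark TTTGAA and CCAAT or their reverse complements, TTCAAA and ATTGG.
Mki67 (chr7:135716360-135716549, minus strand): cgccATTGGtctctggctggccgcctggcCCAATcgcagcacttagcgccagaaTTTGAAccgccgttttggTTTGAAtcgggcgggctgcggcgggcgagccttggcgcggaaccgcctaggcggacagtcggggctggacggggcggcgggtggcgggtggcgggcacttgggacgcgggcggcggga
Top2a (chr11:99024170-99024359, minus strand): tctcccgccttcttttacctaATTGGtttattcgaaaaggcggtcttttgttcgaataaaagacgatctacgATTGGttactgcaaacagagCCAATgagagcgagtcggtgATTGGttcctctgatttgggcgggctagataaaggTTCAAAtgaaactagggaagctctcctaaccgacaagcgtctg
Cdk1 (chr10:69352893-69353082, minus strand): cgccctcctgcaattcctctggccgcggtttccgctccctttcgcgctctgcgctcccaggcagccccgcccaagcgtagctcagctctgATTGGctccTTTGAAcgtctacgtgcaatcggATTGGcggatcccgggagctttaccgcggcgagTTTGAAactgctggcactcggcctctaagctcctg
Ccnb2 (chr9:70421535-70421724, minus strand): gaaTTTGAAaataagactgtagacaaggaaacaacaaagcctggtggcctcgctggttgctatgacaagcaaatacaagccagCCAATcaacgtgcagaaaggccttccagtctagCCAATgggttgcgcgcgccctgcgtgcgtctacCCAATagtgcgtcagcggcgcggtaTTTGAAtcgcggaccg
Kif23 (chr9:61946780-61946969, minus strand): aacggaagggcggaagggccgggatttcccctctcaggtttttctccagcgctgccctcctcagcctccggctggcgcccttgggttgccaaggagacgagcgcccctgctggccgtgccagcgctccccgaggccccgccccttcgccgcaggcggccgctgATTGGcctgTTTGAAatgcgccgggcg
Cdc25b (chr2:131186778-131186967, plus strand): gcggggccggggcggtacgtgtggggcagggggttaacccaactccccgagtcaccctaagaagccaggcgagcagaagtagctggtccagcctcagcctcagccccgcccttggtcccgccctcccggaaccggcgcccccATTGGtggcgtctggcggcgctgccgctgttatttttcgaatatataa
Counted with the first transcribed base as 1 and the base before it as -1, the CHR letters began at -116 and -98 in Mki67, at -23 in Top2a, at -71 and -15 in Cdk1, at -167 and 5 in Ccnb2 and at 3 in Kif23. The CCAAT boxes of Ccnb2 began at -87, -54 and -21, which is 33 bases apart in each step. Those of Cdk1 began 32 bases apart, at -80 and -48. The 9 members with a window and no CHR letters were Ccnb1, Cdc25b, Birc5, Cenpe, Nuf2, Bub1, Mad2l1, Pttg1 and Nusap1. Tpx2, Aurkb, Kif20a, Spc24, Ccna2, Cdc25c, Smc4 and Incenp were not matched to a window.

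Libraries held 38784434 to 75004876 reads recovered from the deposited values, and mitochondrial ribosomal RNA took 44.2% to 48.6% of normalized counts at 11 weeks and 35.2% to 51.8% at 8 weeks. Its share was lowest in replicate 2 at 11 weeks and in replicate 1 at 8 weeks. The 5 genes of the sort antigens, Ptprc, Cd14 and 3 MHC class II genes, of which 1 passed the test, summed to 203387 to 310598 normalized counts at 11 weeks, against 332223 to 407250 at 8 weeks. Of these genes 4 had a negative log2 fold change and 1 a positive one (median -0.57). The sum does not show the direction of the gene that passed. All 13 macrophage markers found were present in every library, with summed levels of 861587 to 975467 normalized counts at 11 weeks and 820663 to 1028130 at 8 weeks. Transcripts of other cells were also present, and the sums of some lists differed between the ages. Of their markers 1 of the mammary epithelium passed the limma test, and 0 of the other cell types did. The 15 mammary epithelial markers summed to 26775 to 51268 normalized counts at 11 weeks and 9686 to 13233 at 8 weeks, with Krt5, Krt14 and Cldn3 at 0 in at least 1 library. The 10 neutrophil markers summed to 5325.6 to 5856.9 at 11 weeks and 1580.2 to 3739.2 at 8 weeks, with Elane at 0 throughout. The 12 T cell markers summed to 2912.1 to 4321.7 at 11 weeks and 4398.5 to 5530 at 8 weeks, although the median log2 fold change of these markers was positive (1.07). The 8 fibroblast markers were all positive (median log2 fold change 1.32) and summed to 1673.3 to 4027.7 at 11 weeks, against 797.8 to 1683.2 at 8 weeks. The 6 endothelial markers summed to 674 to 1174.6 at 11 weeks, against 404.6 to 543.1 at 8 weeks, and the 8 conventional dendritic cell markers to 3973.8 to 5057.1, against 5270.5 to 6758.5. Single markers of these cells did not share a direction. Of the endothelial markers 3 were negative and 3 positive (median log2 fold change -0.12), and of the dendritic cell markers 4 and 4 (median 0.04). The 7 monocyte markers had a median log2 fold change of 0.82, with summed levels of 78289.8 to 96870.1 at 11 weeks that overlapped the 62567.8 to 88202.5 at 8 weeks. Plasma cell and NK cell sums also overlapped between the ages. The 6 B cell markers summed to 5.0 to 409.7 at 11 weeks and 25.6 to 302.3 at 8 weeks. One library stood apart for the genes described here: 11-week replicate 2 held far more of them than the other 11-week libraries. It also had the lowest epithelial sum of its age (26775, against 51268 in replicate 1 and 47658 in replicate 3) and the highest macrophage sum of its age (975467). At 8 weeks replicate 1 held the most of the genes described here. Its epithelial sum was the lowest of that age (9686), but so was its macrophage sum (820663), and the highest macrophage sum was that of replicate 2 (1028130). T cell sums ranked the libraries of each age as the sums of the genes described here did. They were 2912.1, 4321.7 and 4307 in 11-week replicates 1 to 3, against 5530, 4398.5 and 4594.2 in 8-week replicates 1 to 3. Replicates 2 and 3 of 11 weeks were thus nearly level for T cell markers. Plasma cell sums ranked the libraries of each age in the reverse order. The part of other cells in the results below was not tested.

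Most mitosis and G2/M transcripts (36 of 47) had a lower mean at 11 weeks, unevenly over the libraries, and none passed the test. A library's counts for all 47 genes summed to 40709.8, 71811.8 and 45930.9 normalized counts in 11-week replicates 1 to 3, against 76715.3, 57019.4 and 60004.5 in 8-week replicates 1 to 3. Replicates 1 and 3 of 11 weeks lay below all 8-week libraries, and replicate 2 of 11 weeks lay above 8-week replicates 2 and 3. Mki67 alone made up 26.8% to 30.6% of these sums. In RPM, recovered reads scaled to each library's total, the members took 710.5, 1329.1 and 795.3 at 11 weeks, against 1773.8, 1061.2 and 936.7 at 8 weeks, so the same 2 libraries were lowest on that scale. These totals include mitochondrial ribosomal RNA, which took 35.2% of normalized counts in 8-week replicate 1 and 51.8% in 8-week replicate 3. In sorted bulk RNA, fewer dividing cells and less of these transcripts per dividing cell cannot be told apart.

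All 47 members averaged 1 or more normalized counts at each age, and all were tested. On log2(normalized count + 1), 40 of the 47 (85.1%) had a negative log2 fold change of 11 over 8 weeks, where 47.2% of all 21675 genes tested were negative. Among the 10727 tested genes averaging 100 or more normalized counts the negative share was 51.7%. The median log2 fold change of the members was -0.34, against 0.052 for all genes tested. Single genes ranged from -1.21 for Cdc25b to 0.57 for Racgap1, with a median standard error of 0.41. In limma with Benjamini-Hochberg adjustment over all genes, 0 members passed an adjusted p of 0.05, where 0.0507% of all genes did (11 genes), and the smallest adjusted p of a member was 0.481. At an unadjusted p under 0.05 there were 3 members lower and 0 higher, where 3.27% of all genes were lower and 4.76% higher. The edgeR quasi-likelihood test called 0 members and 0.0646% of all genes, and DESeq2 called 0 members and 2.73% of the genes it gave an adjusted p. The authors' deposited table, too, has 0 members with an adjusted p under 0.05, where 1.91% of the genes it gives one did (272 genes), and 36 of the 47 are negative there. The median of the members was -0.58 without 11-week replicate 2 and -0.17 without 11-week replicate 1, so its size rested on these libraries.

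**Figure D1:**
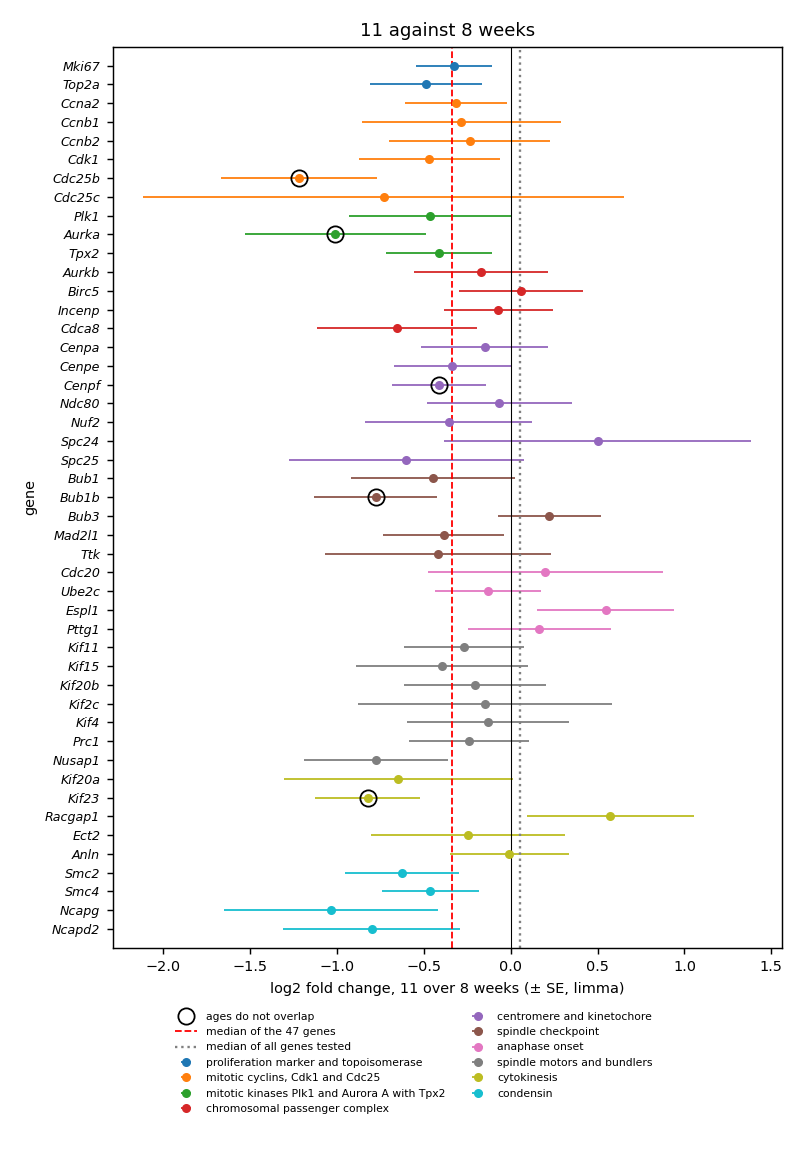
Log2 fold change of 11 over 8 weeks with its standard error for each of the 47 genes (limma on log2(normalized count + 1), 3 libraries per age), coloured by role and with the 5 genes whose ages do not overlap ringed. Of the points 40 lie left of 0, the dashed line marks the members' median of -0.34, and the dotted line marks the median of all genes tested, 0.052.

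In 5 members the values of the ages did not overlap, each with all 11-week libraries below all 8-week libraries. They were Cdc25b, Kif23, Aurka, Bub1b and Cenpf. That is 10.6% of the members, where 5.12% of all genes tested did not overlap and were lower. Among genes averaging 100 or more normalized counts the share was 7.6%. There were 0 members higher without overlap, where 6.81% of all genes were. The members' share of lower genes rests on 5 genes and lies near that of other genes at like levels.

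Mki67 encodes Ki-67, the nuclear protein that coats mitotic chromosomes and serves as the usual marker of cycling cells. The gene spans positions 135689788 to 135716379 of chromosome 7 in GRCm38 (ENSMUSG00000031004). It was at 11872.3, 20811.9 and 12752.3 normalized counts in 11-week replicates 1 to 3, against 23447.3, 15300.1 and 17351.8 in 8-week replicates 1 to 3. Replicates 1 and 3 of 11 weeks lay below the 8-week range and replicate 2 lay within it. Its mean was 15145.5 ± 4926.9 at 11 weeks and 18699.7 ± 4237.6 at 8 weeks (SD, n = 3 each) (log2 fold change -0.33, SE 0.22; limma adjusted p = 0.763). Top2a encodes topoisomerase II alpha, which untangles sister chromosomes, and spans positions 98992943 to 99024189 of chromosome 11 (ENSMUSG00000020914). It was at 2449.5, 6881.2 and 2766.2 normalized counts in 11-week replicates 1 to 3, against 6178.1, 5017.8 and 4136.4 in 8-week replicates 1 to 3. Here 11-week replicate 2 was the highest of all 6 libraries, 2.64 times the mean of the other 11-week libraries. The log2 fold change was -0.49 with an SE of 0.32 (limma adjusted p = 0.759). Per kilobase of annotated exon, Mki67 led the list with 1682 normalized counts, ahead of Smc4 (607.1), Top2a (507.2), Ube2c (500.6) and Ccnb2 (440.2), and Cdc25c was lowest with 25.8.

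All 6 genes of the mitotic cyclins, Cdk1 and the Cdc25 phosphatases had negative log2 fold changes, between -1.21 and -0.24, though Cdc25c was positive with edgeR and DESeq2 (0.81 and 0.82) and had the higher mean at 11 weeks, and none passed the test. Ccna2 encodes cyclin A2, which partners Cdk2 in S phase and Cdk1 in G2. It was at 1088.7, 1628.1 and 1080.4 normalized counts in 11-week replicates 1 to 3, against 1658.4, 1239.9 and 1789.3 in 8-week replicates 1 to 3. The values overlapped through 11-week replicate 2 alone, which lay above 8-week replicate 2. Ccnb2, a B-type cyclin, was at 314.5, 532.3 and 1092.2 normalized counts at 11 weeks, against 996.8, 469.6 and 638 at 8 weeks. Its highest library was 11-week replicate 3 and not replicate 2, unlike most members. The kinase gene Cdk1 was at 321.8, 677.4 and 602.7 normalized counts at 11 weeks, against 896.1, 515.4 and 752.5 at 8 weeks, and its ages overlapped (log2 fold change -0.47, SE 0.41; limma adjusted p = 0.807). Ccnb1, the other B-type cyclin, ranged from 126 to 301.4 at 11 weeks and from 199.7 to 231.4 at 8 weeks.

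Cdc25b, the Cdc25 phosphatase thought to start Cdk1 activation at the centrosome, had the most negative log2 fold change of the list. It spans positions 131186949 to 131198497 of chromosome 2 (ENSMUSG00000027330). Its values were 246.4, 210.7 and 347.1 normalized counts in 11-week replicates 1 to 3, against 410.2, 656.7 and 842.1 in 8-week replicates 1 to 3. The ages did not overlap, and 11-week replicate 2 was the lowest library rather than a high one. The mean was 268.1 ± 70.7 at 11 weeks and 636.3 ± 216.7 at 8 weeks (SD, n = 3 each) (log2 fold change -1.21, SE 0.45; limma adjusted p = 0.483; DESeq2 adjusted p = 0.067; 0.079 in the authors' deposited table). Cdc25c, a related phosphatase, varied without order, with 1.8, 112.9 and 372.5 normalized counts at 11 weeks, against 54.4, 59.6 and 161.4 at 8 weeks.

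The mitotic kinase genes Plk1 and Aurka and the Aurora A activator Tpx2 were all lower on average. Aurka, whose kinase matures the centrosomes, was at 114.9, 288.3 and 331.7 normalized counts in 11-week replicates 1 to 3, against 604.5, 360.2 and 415.1 in 8-week replicates 1 to 3. The ages did not overlap, by a narrow gap between 331.7 and 360.2. The log2 fold change was -1.01 with an SE of 0.52 (limma adjusted p = 0.658). Tpx2, which also seeds spindle microtubules, was at 926.8, 1341.8 and 1275.2 at 11 weeks, against 1473.9, 1213.6 and 2087.4 at 8 weeks, and only 8-week replicate 2 lay within the 11-week range. Plk1, the Polo-like kinase, was at 210.3 to 325.6 normalized counts at 11 weeks and 320 to 461.2 at 8 weeks (log2 fold change -0.47, limma adjusted p = 0.821).

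The chromosomal passenger complex, which corrects faulty kinetochore attachments and later directs cleavage, was close to level between the ages, with a median log2 fold change of -0.12 over its 4 genes. Incenp, the scaffold of the complex, was at 1144.8, 1159.3 and 784 normalized counts in 11-week replicates 1 to 3, against 928.2, 1224.7 and 1059.9 in 8-week replicates 1 to 3. The values interleaved. Cdca8, which encodes the subunit borealin, was at 353.1, 1512.1 and 455 normalized counts at 11 weeks, against 1028.1, 821.5 and 1121.4 at 8 weeks. Replicates 1 and 3 of 11 weeks lay below the 8-week range and replicate 2 above it, at 3.74 times the mean of the other 11-week libraries. Aurkb, the kinase of the complex, ranged from 491 to 850.8 at 11 weeks and from 538.9 to 989.7 at 8 weeks. Birc5, which encodes survivin, ranged from 570.1 to 802.4 at 11 weeks and from 562.5 to 714 at 8 weeks, and its log2 fold change of 0.061 was -0.027 with scaling to library totals.

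**Figure D2:**
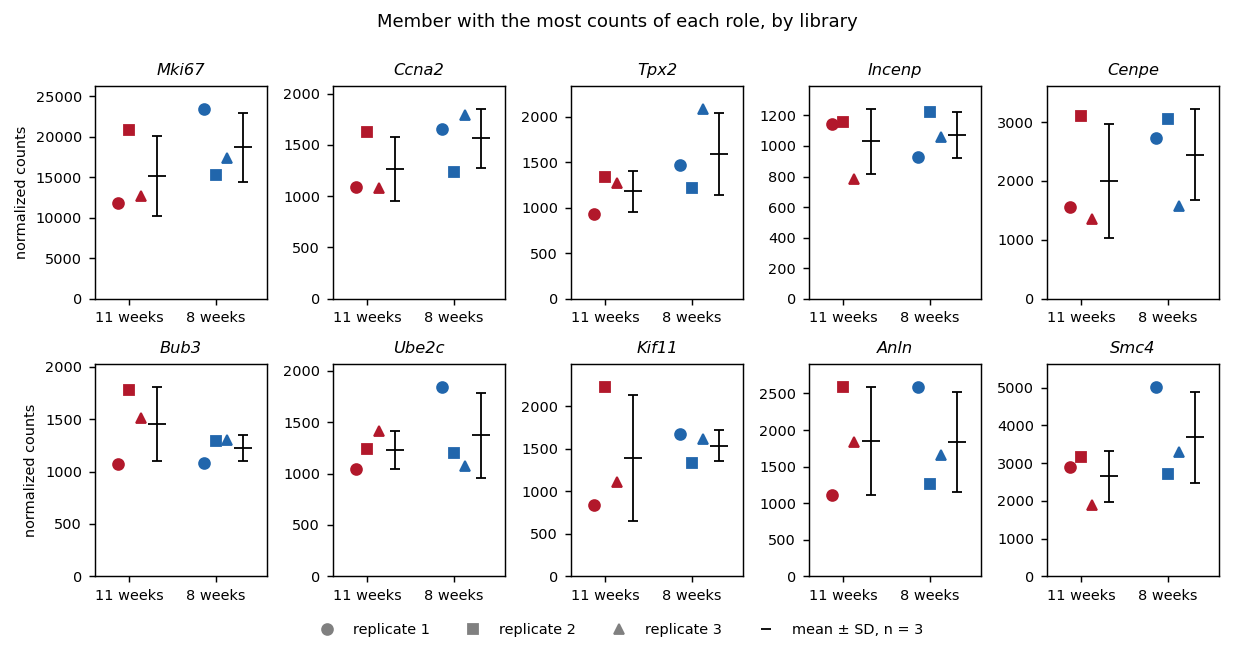
Normalized counts by library of the member with the most counts in each of the 10 roles, 11 weeks left of 8 weeks, with circles, squares and triangles for replicates 1, 2 and 3 and a bar for the mean ± SD (n = 3). Mki67, Ccna2, Cenpe, Kif11 and Anln show 11-week replicate 2 (square) well above the other 11-week libraries, while Tpx2, Incenp and Ube2c do not, and the ages overlap in all 10 panels.

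Of the 7 centromere and kinetochore genes 6 were lower on average, with a median log2 fold change of -0.34. Cenpf, a large protein of the outer kinetochore that builds up in G2, was at 1317.6, 1607.9 and 1132.9 normalized counts in 11-week replicates 1 to 3, against 1808.2, 1798.2 and 1738.1 in 8-week replicates 1 to 3. The ages did not overlap, and the 8-week libraries were nearly level. The log2 fold change was -0.41 with an SE of 0.27 (limma adjusted p = 0.754). Cenpe, the kinetochore motor that carries chromosomes to the spindle equator, was at 1553.9, 3110.9 and 1346.8 at 11 weeks, against 2724.8, 3046.4 and 1575 at 8 weeks. The highest library of each age was about level with the other, at 3110.9 and 3046.4. Of the microtubule-binding Ndc80 complex, Ndc80, Nuf2 and Spc25 stood at -0.06, -0.36 and -0.60 in log2 fold change and Spc24 at 0.50, with limma adjusted p between 0.831 and 0.974. Spc25 was highest in 11-week replicate 1 (412.8 normalized counts) and lowest in 11-week replicate 2 (89.7), the reverse of most members. Cenpa, the histone variant that marks centromeres, was at 723.6 to 1453.8 at 11 weeks and 724.3 to 1293.8 at 8 weeks.

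Among the 5 spindle checkpoint genes, 4 were lower on average. Bub1b encodes BubR1, which blocks the anaphase-promoting complex, and spans positions 118598211 to 118641591 of chromosome 2 (ENSMUSG00000040084). Its values were 483.6, 544.4 and 584.6 normalized counts in 11-week replicates 1 to 3, against 730.2, 847.9 and 1249.5 in 8-week replicates 1 to 3. The ages did not overlap, and 11-week replicate 2 was not high. The log2 fold change was -0.78 with an SE of 0.35 (limma adjusted p = 0.613). Bub3, which brings Bub1 and BubR1 to kinetochores, was at 1076.7, 1781.3 and 1511.8 at 11 weeks, against 1082.4, 1292.6 and 1303.4 at 8 weeks, and was the only member of this role that was higher on average (log2 fold change 0.22, limma adjusted p = 0.842). Mad2l1, which encodes the checkpoint protein Mad2, was at 910.3, 795.4 and 479.5 at 11 weeks, against 871.1, 921.3 and 963.4 at 8 weeks. Replicates 2 and 3 of 11 weeks lay below the 8-week range, replicate 3 by more. The checkpoint kinase genes Bub1 and Ttk overlapped widely, with Bub1 at 328.3 to 883.1 and Ttk at 83.7 to 233.8 normalized counts at 11 weeks, against 371.5 to 899.7 and 120.4 to 378.9 at 8 weeks.

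Of the 4 genes of anaphase onset 3 were higher on average, though Cdc20 was at -0.014 with edgeR, and their median log2 fold change was 0.18. None passed the test. Espl1, which encodes separase, the protease that cuts cohesin, was at 634.4, 1285.3 and 796.7 normalized counts in 11-week replicates 1 to 3, against 897.9, 453 and 512.5 in 8-week replicates 1 to 3. The ages overlapped through 8-week replicate 1 (log2 fold change 0.55, SE 0.39; limma adjusted p = 0.785). Ube2c, the ubiquitin-conjugating enzyme of the anaphase-promoting complex, was at 1039.9, 1234.9 and 1414.8 at 11 weeks, against 1847.5, 1199.7 and 1072.7 at 8 weeks. Its values interleaved. Pttg1, which encodes securin, ranged from 449.6 to 809.1 at 11 weeks and from 444.1 to 908.6 at 8 weeks, and Cdc20, which activates the complex, from 123.3 to 190.3 and from 74.3 to 279.1.

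All 7 spindle motor and bundling genes had negative log2 fold changes, between -0.78 and -0.13, though Kif2c was positive with edgeR and DESeq2 (0.21 and 0.22) and had the higher mean at 11 weeks, and all 7 were highest at 11 weeks in replicate 2. Kif11 encodes the motor that pushes the spindle poles apart. It was at 832.1, 2228.9 and 1102.1 normalized counts in 11-week replicates 1 to 3, against 1669.1, 1327.2 and 1610.8 in 8-week replicates 1 to 3. The 8-week libraries lay between the low and the high values of 11 weeks. Kif15, a motor that can stand in for Kif11, was at 438.6, 1769.2 and 603.6 at 11 weeks, against 1654.9, 1180.3 and 545.8 at 8 weeks. Nusap1, a microtubule-binding protein, was at 321.8, 1109.9 and 640.8 at 11 weeks, against 1159.1, 972.5 and 1019.8 at 8 weeks, with replicates 1 and 3 of 11 weeks below the 8-week range (log2 fold change -0.78, SE 0.41; limma adjusted p = 0.673). In Kif20b, Kif4 and Kif2c the value of 11-week replicate 2 was 2.29, 2.56 and 2.88 times the mean of the other 11-week libraries, and it was 1.27 times in the antiparallel microtubule bundler Prc1.

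Of the 5 cytokinesis genes, Kif23 and Kif20a had lower means at 11 weeks. Ect2 and Anln had negative log2 fold changes in limma (-0.24 and -0.008) but slightly higher means, and Ect2 was positive with edgeR and DESeq2 (0.052 and 0.057), as was Anln with DESeq2 (0.009) and upper-quartile scaling (0.043). Kif23 had the smallest p of the list. It encodes a motor subunit of centralspindlin, which marks the site of cleavage, and spans positions 61917280 to 61946799 of chromosome 9 (ENSMUSG00000032254). Its values were 820.2, 1371 and 939 normalized counts in 11-week replicates 1 to 3, against 2127.4, 1900.7 and 1447.7 in 8-week replicates 1 to 3. The ages did not overlap, with 11-week replicate 2 just below 8-week replicate 3. The mean was 1043.4 ± 289.9 at 11 weeks and 1825.3 ± 346.1 at 8 weeks (SD, n = 3 each) (log2 fold change -0.82, SE 0.30; limma adjusted p = 0.481). Racgap1, the partner of Kif23 in centralspindlin, had the opposite sign, with 366, 1042.4 and 776.7 normalized counts at 11 weeks, against 749, 454.4 and 263.9 at 8 weeks. Its ages overlapped (log2 fold change 0.57, SE 0.48; limma adjusted p = 0.804). Anln, which encodes the actin-binding protein anillin, was at 1117.2, 2590.8 and 1837.2 at 11 weeks, against 2594.7, 1255.2 and 1658.7 at 8 weeks, with nearly equal means of 1848.4 and 1836.2. Ect2, which activates RhoA at the cleavage site, was at 679.4 in 11-week replicate 2 and 145.3 and 237.5 in the other 11-week libraries, against 304.9 to 358.4 at 8 weeks. Kif20a, a motor of the midzone, ranged from 64.4 to 168.6 at 11 weeks and from 135.8 to 279.1 at 8 weeks.

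All 4 condensin genes, whose products compact chromosomes, were lower on average, and their median log2 fold change of -0.71 was the lowest of the 10 roles. Smc4 was at 2897.3, 3149.3 and 1889.7 normalized counts in 11-week replicates 1 to 3, against 5029.7, 2714 and 3297.7 in 8-week replicates 1 to 3. Smc2, its partner ATPase, was at 1051, 1845.8 and 1015.1 at 11 weeks, against 2365.5, 1300.9 and 2350.5 at 8 weeks (log2 fold change -0.63, SE 0.33; limma adjusted p = 0.667). In both genes 8-week replicate 2 lay within the 11-week range. Ncapg ranged from 136.1 to 390.1 at 11 weeks and from 169 to 705.3 at 8 weeks, and Ncapd2 from 189.4 to 460.7 and from 296.4 to 940.7, for log2 fold changes -1.03 and -0.80 (limma adjusted p 0.721 and 0.745).

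**Figure D3:**
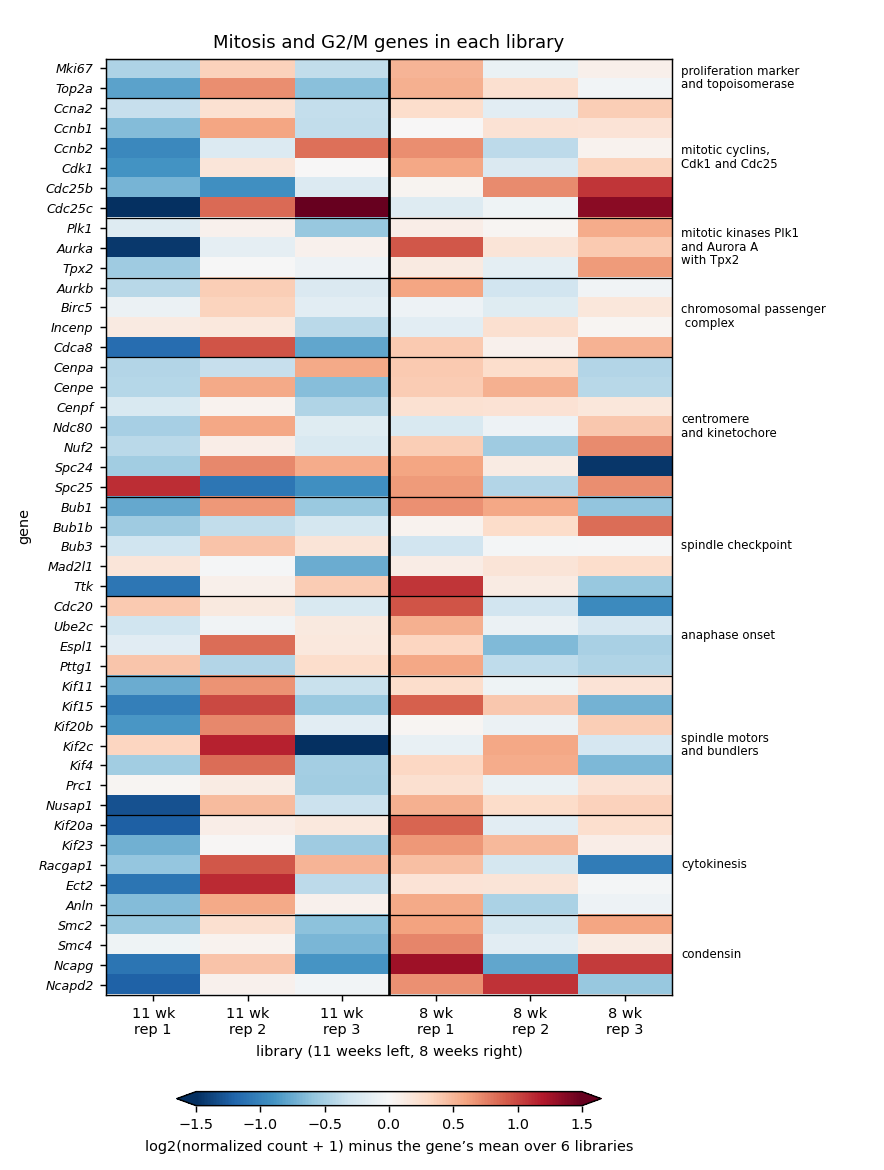
Each of the 47 genes (rows, grouped by role) in each library (columns, 11 weeks left of the black line and 8 weeks right), coloured by log2(normalized count + 1) minus the gene's mean over the 6 libraries. Replicate 1 of 11 weeks is mostly blue (27 genes lowest there of all 6 libraries), while replicate 2 of 11 weeks and replicate 1 of 8 weeks are mostly red (16 and 18 genes highest there).

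The spread among libraries of one age was wide and shared by many members. In 34 of the 47 genes (72.3%) replicate 2 was the highest 11-week library, where this held for 33.7% of all genes tested and 32.8% of those averaging 100 or more normalized counts. It exceeded the mean of 11-week replicates 1 and 3 by a median of 0.64 on the log2 scale over the members, against 0.023 over genes averaging 100 or more. Of the 47 genes, 33 lay below the 8-week range in 11-week replicate 1, 24 in replicate 3 and 7 in replicate 2, where 26.9%, 31.2% and 27% of genes averaging 100 or more lay below it in those libraries. Replicate 2 lay within the 8-week range in 24 members and above it in 16. At 8 weeks replicate 1 was the highest library in 27 members, replicate 3 in 14 and replicate 2 in 6, while replicate 1 was highest in 29.8% of genes averaging 100 or more. The SD of log2 values within an age had a median of 0.58 at 11 weeks and 0.45 at 8 weeks over the members, against 0.41 at 11 weeks and 0.37 at 8 weeks over genes averaging 100 or more.

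Many members followed Mki67 from library to library. Over the 6 libraries, Pearson's r of log2 values with Mki67 had a median of 0.66 over the 45 other members averaging 100 or more normalized counts, and it exceeded 0.5 in 30 of them. Over all other genes with such a mean the median was 0.01, and 15.3% exceeded 0.5. These are descriptions over 6 points that share libraries, depth and scaling. Aurkb (0.946), Top2a (0.922), Kif11 (0.892), Smc2 (0.89), Cdca8 (0.885) and Ncapg (0.885) were most like Mki67. Cdc25b (0.077), Incenp (0.067), Cenpa (0.024), Spc25 (-0.069) and Pttg1 (-0.152) were least like it, and the anaphase genes Cdc20 (0.308) and Espl1 (0.475) lay between. Of the genes whose ages did not overlap, Kif23, Cenpf and Aurka had r of 0.789, 0.742 and 0.712, and Bub1b 0.298. Outside all lists, the genes most like Mki67 were Cox18 (0.993), Il10ra (0.973), Ppcdc (0.971), Cib2 (0.971) and Pigo (0.966). Il10ra, which encodes the ligand-binding chain of the interleukin 10 receptor, was at 2253.6, 4195.6 and 2875.8 normalized counts at 11 weeks, against 5029.7, 3380.3 and 3501.8 at 8 weeks. Members with the CHR letters and members without them had like median log2 fold changes of -0.30 and -0.36, and replicate 2 was the highest 11-week library in 22 of 30 and in 6 of 9. Replicate 2 exceeded the mean of the other 11-week libraries by a median of 0.72 on the log2 scale with the letters and 0.46 without.

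The other genes of the cell cycle, 149 in 9 lists, were read from the same test. Of the 148 that were tested (all but Cdkn2a) 0 passed in either direction, with a smallest limma adjusted p of 0.314, and 92 were negative with a median log2 fold change of -0.16. The 27 other spindle, centrosome and cytokinesis genes were, like the members, low in 11-week replicate 1 and high in replicate 2. At 8 weeks their sum was highest in replicate 1, as for the members (18258.6, against 15636.8 and 15735.7 normalized counts). Their median deviation from each gene's mean was -0.60, 0.42 and -0.06 on the log2 scale in 11-week replicates 1 to 3, against 0.054, -0.006 and 0.012 at 8 weeks, and 18 were highest at 11 weeks in replicate 2. Their median log2 fold change was -0.22. Kif18b, a kinesin that shortens microtubules, and Melk, a mitotic kinase, were at 278.2 to 606.9 and 251 to 423.4 normalized counts at 11 weeks, against 123 to 191.7 and 102.5 to 181.9 at 8 weeks, above the 8-week range in all 11-week libraries (log2 fold changes 1.38 and 1.20, limma adjusted p = 0.491 and 0.616). The 30 other centromere and kinetochore genes had a median of -0.32 with 22 negative. Among them Cenpl and Casc5, both of the kinetochore, were at 232.9 to 437.7 and 723.3 to 1011.1 at 11 weeks, against 595.7 to 1085.1 and 1299.9 to 1601.5 at 8 weeks (limma adjusted p = 0.524 and 0.557).

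Of 12 other condensin and cohesin genes 11 were negative, with a median log2 fold change of -0.32. The cohesin gene Stag2 was at 3088.5, 3206.7 and 2100 normalized counts in 11-week replicates 1 to 3, against 4255.8, 4589.8 and 5723.3 in 8-week replicates 1 to 3, and the condensin II gene Ncapd3 at 487.6 to 649.2 against 696.8 to 1073.6. Neither overlapped between the ages (limma adjusted p = 0.314 and 0.695). Of 18 S phase genes 13 were negative, with a median of -0.26, and 6 did not overlap and were lower at 11 weeks, where 5.12% of all genes tested and 7.6% of those averaging 100 or more were. In the other direction Tyms, which encodes thymidylate synthase, was at 582 to 885.1 normalized counts at 11 weeks, against 225.8 to 558.2 at 8 weeks, without overlap (limma adjusted p = 0.616). Pola1, the catalytic subunit of DNA polymerase alpha, was at 924.1, 935.5 and 745 normalized counts at 11 weeks, against 2229.1, 1751.1 and 1232.5 at 8 weeks (limma adjusted p = 0.395). Its DESeq2 adjusted p was 0.0348. Rrm1, of ribonucleotide reductase, was at 1291, 2077.7 and 1554.4 at 11 weeks, against 2475.2, 3013.2 and 2515.3 at 8 weeks (limma adjusted p = 0.479). In both genes 11-week replicate 2 lay below every 8-week library.

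The regulators of the programme were mixed. Of 21 transcription regulators 13 were negative, with a median log2 fold change of -0.12. Foxm1, an activator of G2/M genes, was at 593.1, 685.5 and 624.5 normalized counts in 11-week replicates 1 to 3, against 1259, 584.6 and 1348.6 in 8-week replicates 1 to 3. The 11-week libraries were nearly level, and only 8-week replicate 2 lay as low (log2 fold change -0.66, SE 0.37; limma adjusted p = 0.705). Mybl2, which partners MuvB at these promoters, was low, at 53.4 to 128.7 at 11 weeks and 53.8 to 106.7 at 8 weeks. E2f1, an activator of S phase genes, was at 688.7 to 998.8 at 11 weeks and 769.5 to 1710.8 at 8 weeks. Rbl2, which encodes the DREAM repressor subunit p130, was at 1975.8 to 2388.8 at 11 weeks and 2596.4 to 3583.8 at 8 weeks, without overlap (limma adjusted p = 0.643), and Tfdp2, a partner of E2F proteins, was at 372 to 802.1 and 752.5 to 1122.6 (limma adjusted p = 0.655).

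Cdk1 is held inactive by Wee1 and Pkmyt1. These kinase genes were the 2 with the smallest p among 9 Cdk1 regulators, whose median was -0.27. Pkmyt1 was at 62.5 to 179.4 normalized counts at 11 weeks and 148.6 to 365.7 at 8 weeks, and Wee1 at 154.5 to 649.2 and 433.9 to 1102.8 (limma adjusted p = 0.669 and 0.717). Of the CDK inhibitors 4 of 6 tested were positive. Cdkn1a, which encodes p21, was at 18530.3, 16684.8 and 15688 at 11 weeks, against 15263, 15419.2 and 12215.3 at 8 weeks. All 11-week libraries lay above all 8-week libraries by a small margin (log2 fold change 0.25, SE 0.17; limma adjusted p = 0.759). Cdkn1b, which encodes p27, was at 491 to 921.4 at 11 weeks and 731.5 to 1650.1 at 8 weeks, and Cdkn2d at 783.4 to 1569.8 and 288.7 to 1569.6.

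The G1 cyclins and kinases had a median log2 fold change of 0.063 over 9 genes. The G1 kinase gene Cdk6 was at 2193, 2966.8 and 3737.8 normalized counts in 11-week replicates 1 to 3, against 1959.8, 1530.8 and 1983.2 in 8-week replicates 1 to 3, without overlap (log2 fold change 0.68, SE 0.27; limma adjusted p = 0.521). Ccnd3, a cyclin that activates it, was at 293.3 to 713.7 at 11 weeks and 512.6 to 1288 at 8 weeks (limma adjusted p = 0.644). The 16 genes of the anaphase-promoting complex and its regulators had a median of 0.036 and ran from -0.17 to 0.99. Their smallest p belonged to Anapc13, a small subunit, at 929.6, 1229.9 and 1404.8 normalized counts at 11 weeks, against 581.3, 660.8 and 529.5 at 8 weeks, without overlap (log2 fold change 0.99, SE 0.33; limma adjusted p = 0.415; DESeq2 adjusted p = 0.0196). Cdc26, another subunit, was at 439.6 to 952.6 at 11 weeks and 265.7 to 689.9 at 8 weeks (limma adjusted p = 0.794).

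**Figure D4:**
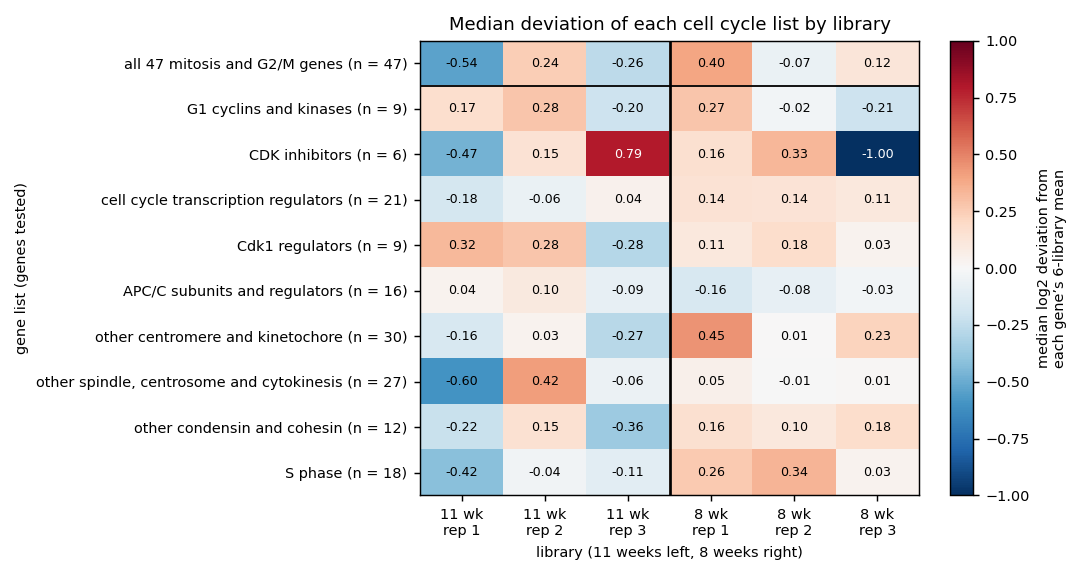
Median log2 deviation from each gene's 6-library mean, for all 47 genes (top row) and for 9 other cell cycle lists (rows), in each library (columns, 11 weeks left and 8 weeks right of the black line). The top row is lowest in 11-week replicate 1 (-0.54), and both it and the other spindle genes are high in 11-week replicate 2, while the anaphase-promoting complex lies between -0.163 and 0.096 in every library.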

How the data were processed

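RNA of macrophages sorted from mammary glands was sequenced in 3 libraries at 11 weeks and 3 at 8 weeks, with a kit for small RNA amounts, per the labels. STAR 2.4, DESeq2 1.6 and GRCm38 are named, with no role, in the submitters' processing notes. The sources used here name neither a counting tool nor an annotation. The deposited signal values, 1 per gene and library, are counts scaled by a size factor, as their steps show. The authors also deposited their comparison: log2 fold change, ratio and p-value. At least 99.951% of nonzero values came to whole reads (tolerance 0.05 normalized counts).

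Because these are normalized values, limma (trend, robust) on log2(normalized count + 1) was the main test, with age as the only term and genes averaging 1 or more in either age. Benjamini-Hochberg adjustment ran over all genes tested, with a threshold of 0.05. The added 1 understates changes of low genes. The members and lists were chosen with earlier results of these data known. Values in every library are given, in each role, for the 2 members with the most counts, the one with the smallest p and those without overlap between ages. In each other list the 2 genes with the smallest p are named, and Foxm1, Mybl2, E2f1, Cdkn1a and Cdkn1b always. Cdk1, Cdc25c and Racgap1 were given in full after their values were seen. Libraries of one age differed beyond counting noise (chi-square per degree of freedom 116.25 to 331.5). Nothing says that counting used strand, so a gene and an antisense or overlapping partner cannot be told apart. Exon lengths join all GENCODE M21 exons of a gene. Samples with the same number at both ages did not deviate together (correlations -0.023 to -0.009), so numbers were not taken as pairs.

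Alternatives were edgeR and DESeq2 on recovered reads, scaling, pseudocount, filter, a replicate block and leaving out each library. The fit was also run on simulated data with known changes, and the outcome is not given here. The lack of members passing therefore does not show that they did not change. Versions were limma 3.58.1, DESeq2 1.42.0 and edgeR 4.0.16 in R 4.3.3, with matplotlib 3.10.9, numpy 2.4.6 and pandas 2.3.3 in Python 3.11.15.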

Additional observations from a re-analysis of the deposited data

How the results depend on the processing

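No member passed an adjusted p of 0.05 in the limma test or in any of the 15 alternatives (edgeR, DESeq2, scaling, pseudocount, filter, replicate block and leaving out each library), and the smallest adjusted p of a member was 0.067. The median log2 fold change of the members stayed negative in all 15, from -0.582 to -0.173, and the count of negative members ran from 30 to 42. The count of genes passing over the whole table moved more: it was 11 in the limma test, 422 with DESeq2, 4 with scaling to library totals and 5 with a pseudocount of 8, and ran from 3 to 16 when single libraries were left out. The replicate block gave 45, with no member among them, although the numbers do not pair the samples. DESeq2 called 2 genes of the other cell cycle lists, Anapc13 and Pola1. The cause of these changes was not tested.

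The sign of 6 members changed with the tool or the scaling. With edgeR the log2 fold changes of Cdc25c, Cdc20, Kif2c and Ect2 were 0.81, -0.014, 0.21 and 0.052, and with DESeq2 those of Cdc25c, Kif2c, Ect2 and Anln were 0.82, 0.22, 0.057 and 0.009. That of Birc5 was -0.027 with scaling to library totals, and that of Anln 0.043 with upper-quartile scaling. Leaving out single libraries gave log2 fold changes that crossed 0 for 19 members: Ccnb2 -0.71 to 0.19, Cdc25c -2.19 to 1.34, Aurkb -0.40 to 0.085, Birc5 -0.092 to 0.16, Incenp -0.17 to 0.11, Cenpa -0.47 to 0.033, Ndc80 -0.37 to 0.17, Spc24 -0.10 to 0.92, Ttk -0.81 to 0.021, Cdc20 -0.23 to 0.72, Ube2c -0.29 to 0.10, Pttg1 -0.020 to 0.50, Kif11 -0.67 to 0.037, Kif15 -0.99 to 0.017, Kif20b -0.62 to 0.18, Kif2c -0.76 to 0.67, Kif4 -0.58 to 0.12, Ect2 -0.86 to 0.24 and Anln -0.29 to 0.31. With 3 libraries an age the median standard error of a member was 0.41 on the log2 scale, which is for single genes and not for the members' median. That median varied between libraries of one age with an SD of 0.325 on the log2 scale, against a median log2 fold change of -0.335. The SD describes single libraries, while the fold change compares means of 3 libraries per age, so they are not like quantities.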
